A study of Mus musculus with 8 samples.

Results

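The mitochondrial ribosomal protein genes were taken as all genes whose symbol consists of Mrpl or Mrps followed by a number and at most one letter a, b or c. This gave 78 of the 53816 genes listed in the liver tables, 49 named for the large subunit (Mrpl) and 29 for the small subunit (Mrps). All 78 had a mean of at least 1 TPM and entered the tests, which covered 13055 genes. The 5 Mrp names with a pseudogene suffix were left out. Livers of 8 mice were profiled by RNA-seq after bile duct ligation, a surgery that blocks bile outflow and that every animal received, so no group without surgery was analysed here. The mice labelled Myc (n = 4) carry, per the labels, Myc overexpression in liver sinusoidal endothelial cells. The mice labelled control (n = 4) are wild type. The labels give neither the promoter that drives Myc nor age, sex, litter or processing batch.

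Mitochondria hold their own ribosomes, which translate the few proteins encoded by mitochondrial DNA, all of them subunits of the respiratory chain and ATP synthase. The ribosomal RNAs come from mitochondrial DNA, whereas every protein of these ribosomes is encoded in the nucleus, made in the cytosol and imported. Myc is a transcription factor known for raising genes of ribosome production and of mitochondrial biogenesis, which is why Myc level was set beside these genes. Liver parenchyma is rich in mitochondria, and endothelial cells are a minor part of liver RNA. In whole tissue, fewer cells of a type and less RNA per cell cannot be told apart.

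Myc itself did not follow the labels. It had 339, 356, 25.6 and 249 TPM in the 4 libraries labelled Myc (replicates 1 to 4), against 272, 207, 554 and 89.2 TPM in the 4 control libraries. The lowest value of all 8 was in Myc replicate 3 and the highest in control replicate 3. The mean was 242 ± 152 TPM in Myc livers and 281 ± 198 TPM in control livers (SD, n = 4 each), and an exact two-sided permutation test over 70 assignments gave p = 0.714. Every direction below that is drawn from the labels carries this limit, and Myc TPM was therefore also used as a measured quantity across all 8 libraries. The tables hold TPM (transcript abundance) scaled by transcript length and to the same total in each library. The aligned bases behind them were 5.29 to 6.74 Gb per library, as estimated from coverage and FPKM. Hepatocyte markers were abundant in every library, with a summed 71835 to 109800 TPM over 10 genes in the libraries labelled Myc and 70944 to 131520 TPM in control libraries, so the labelled tissue was borne out.

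The 78 genes were expressed in all livers over a 22.9-fold range of mean levels. The lowest mean was 4.41 TPM for Mrpl19 and the highest was 101 TPM for Mrpl18. The median member stood at 28.5 TPM, against 9.97 TPM for the median tested gene. Of the members, 71 reached a mean of 10 TPM and 19 reached 50 TPM. Large subunit genes had a median of 29.5 TPM and small subunit genes one of 25.8 TPM, both per transcript length. The 78 genes lay on 17 chromosomes.

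The 5 highest members were all named for the large subunit. Mrpl18 (chr17:12911349-12916345), whose human counterpart binds imported 5S rRNA, had 114, 95.6, 77.8 and 111 TPM in Myc livers and 97.8, 99.8, 130 and 81.6 TPM in control livers. Mrpl12 (chr11:120484613-120489065), a stalk protein that also binds mitochondrial RNA polymerase, had 102, 108, 72.6 and 78.4 TPM in Myc livers and 105, 95.9, 106 and 101 TPM in control livers. In both genes Myc replicate 3 was the lowest library, and the groups overlapped. Mrpl52, Mrpl42 and Mrpl30 followed, with means of 89.6, 74.0 and 72.9 TPM over the 8 libraries. The 5 lowest members were Mrpl19, Mrpl47, Mrps25, Mrpl35 and Mrps35, with means of 4.41, 4.90, 5.23, 6.99 and 7.58 TPM.

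Some members were measured less firmly than the others. Mrps25 (chr6:92169525-92184033), a small subunit protein, had the widest spread of all 78, with 9.56, 3.81, 4.07 and 3.90 TPM in Myc livers and 8.44, 2.66, 6.71 and 2.70 TPM in control livers. Its 3 high libraries were Myc replicate 1, control replicate 1 and control replicate 3, so the pattern crossed the groups, and its highest value was 3.59 times its lowest. Mrps6 had 13.3 TPM on average but a mean coverage of only 0.737, against a median coverage of 43.4 over the members. Mrpl33 (39.8 TPM) and Mrpl48 (13.9 TPM) were also low in coverage for their level, at 1.84 and 3.89. Whether these levels rest on few aligned bases was not tested. Reads of the pseudogenes left out could in part belong to their parents Mrpl23, Mrpl48 and Mrps36, but those pseudogenes did not exceed 2.14 TPM in any library. In all, 19 members overlap a tested gene on the opposite strand and 3 on the same strand, and since the labels do not state read strand, reads in those overlaps cannot be told apart.

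**Figure D1:**
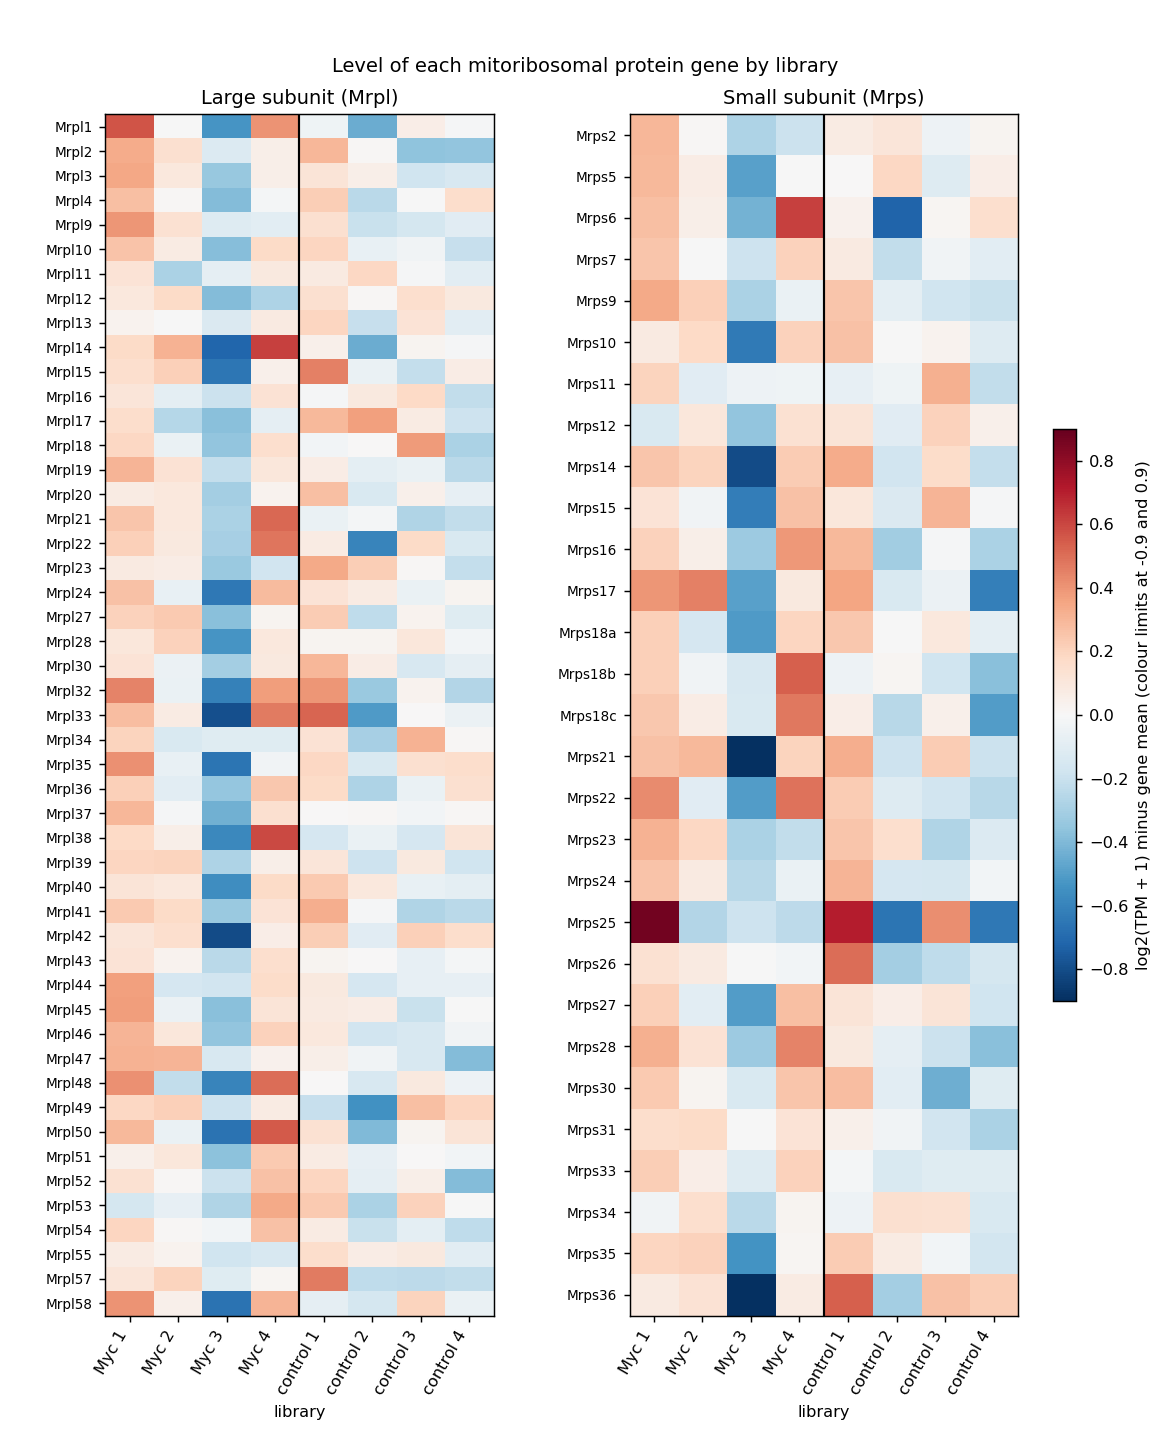
Level of each of the 78 genes in each library, as log2(TPM + 1) minus the gene's mean over the 8 libraries, with large subunit genes on the left, small subunit genes on the right, and in each panel the libraries labelled Myc left of the line and control libraries right of it. Red is above and blue below the gene's own mean. The column of Myc replicate 3 is blue in all 78 genes, and no other column has 1 colour throughout.

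The summed level of the genes did not separate the labelled groups. The 78 genes together had 2926, 2674, 1976 and 2868 TPM in Myc livers (replicates 1 to 4), against 2855, 2396, 2595 and 2360 TPM in control livers. Myc replicate 3 was the lowest library, the other 3 Myc livers were all above control replicates 2, 3 and 4, and the groups overlapped. The mean was 2611 ± 437 TPM in Myc livers and 2551 ± 227 TPM in control livers (SD, n = 4 each), or 0.261% and 0.255% of all TPM.

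Large and small subunit genes kept a near-constant ratio. Mrpl genes summed to 1768 ± 294 TPM in Myc livers and 1746 ± 144 TPM in control livers, and Mrps genes to 843 ± 143 TPM in Myc livers and 805 ± 85.2 TPM in control livers (SD, n = 4 each). The ratio of the Mrpl sum to the Mrps sum was 2.10, 2.06, 2.12 and 2.11 in Myc livers and 2.11, 2.12, 2.18 and 2.28 in control livers. This ratio therefore spanned 2.06 to 2.12 in Myc livers, the library with the lowest total included, and reached its highest value in control replicate 4. The subunit is read from the symbol here. Mrps18a and Mrps30 are named for the small subunit but were placed in the large subunit by structures of the mammalian particle.

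**Figure D2:**
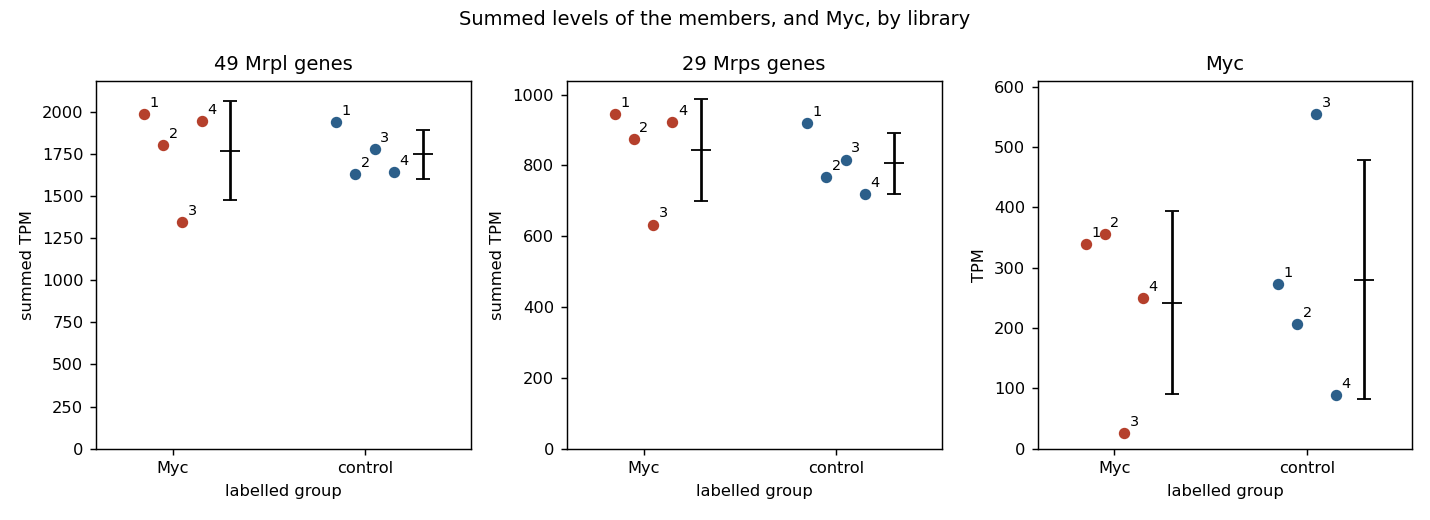
Summed TPM of the 49 Mrpl genes and of the 29 Mrps genes, and TPM of Myc, in each library (points, numbered by replicate), with the mean and SD of each group of 4 beside them, Myc in red and control in blue. Myc replicate 3 has the lowest value in all 3 panels, at 1344 TPM for Mrpl, 633 TPM for Mrps and 25.6 TPM for Myc.

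No member passed the test between the labelled groups. With limma on log2(TPM + 1) and Benjamini-Hochberg adjustment over 13055 genes at 0.05, 0 of 78 members passed (0% of all tested genes did), and the smallest adjusted p of a member was 0.9998. At an unadjusted p under 0.05, 0 members were higher, where 1.26% of all tested genes were, and 0 were lower, where 0.597% were. The 4 Myc values lay entirely above or below the 4 control values in 0 of 78 members, against 1.26% of all tested genes. A difference above 0 was found in 45 of 78 members (57.7%), against 58% of all tested genes. The median difference was 0.03 log2 units in the members and 0.04 in all tested genes, and single members ranged between -0.36 and 0.32. After median-of-ratios scaling 38 of 78 members were above 0, against 50% of all tested genes, with a median of -0.01. Without Myc replicate 1, 29 of 78 were above 0, against 41.6% of all tested genes, with a median of -0.05, so the members have no common direction between the labels. The 95% interval of the difference lay within 1 log2 unit of 0 in all 78 members, with a median half-width of 0.41. Smaller differences than that were not detectable for a typical member at this number of animals. The interval is per gene and unadjusted, so larger differences could also fail the adjusted test.

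The members with the lowest p-values on the higher side were Mrps18c, Mrps18b, Mrpl21, Mrps31, Mrps28 and Mrpl54. Mrps18c (chr5:100798627-100804471) and Mrps18b (chr17:35910379-35916389) are 2 of the 3 mammalian copies of one bacterial ribosomal protein. Mrps18c had 42.0, 37.0, 32.0 and 49.5 TPM in Myc livers, against 36.9, 29.6, 36.5 and 24.6 TPM in control livers. Mrps18b had 57.3, 48.2, 44.5 and 71.9 TPM in Myc livers, against 47.7, 49.7, 43.4 and 37.7 TPM in control livers. Myc replicate 4 was the highest library in both, and the groups overlapped. The log2 difference was 0.32 ± 0.19 (SE; adjusted p = 0.9998, limma) for Mrps18c and 0.29 ± 0.19 (SE; adjusted p = 0.9998, limma) for Mrps18b. The other 4 had differences of 0.29 (Mrpl21), 0.22 (Mrps31), 0.29 (Mrps28) and 0.22 (Mrpl54), and none passed.

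The members with the lowest p-values on the lower side were Mrpl17, Mrps36, Mrpl12, Mrpl42, Mrpl23 and Mrpl35. Mrps36 (chr13:100735955-100744659), which despite its symbol is known as a component of the 2-oxoglutarate dehydrogenase complex, had 18.3, 19.0, 8.03 and 18.2 TPM in Myc livers, against 25.5, 13.7, 20.9 and 20.3 TPM in control livers. Mrpl17, a large subunit protein with a bacterial counterpart, had 15.55, 11.39, 10.41 and 13.01 TPM in Myc livers, against 17.13, 18.07, 14.59 and 12.004 TPM in control livers. Myc replicate 3 was lowest in both genes, and in Mrps36 it stood at less than any other library while the remaining 3 Myc livers lay inside the control range. The difference was -0.36 ± 0.28 for Mrps36 and -0.27 ± 0.18 for Mrpl17 (log2 ± SE; adjusted p = 0.9998 for each, limma). The other 4 differed by -0.20 (Mrpl12), -0.24 (Mrpl42), -0.18 (Mrpl23) and -0.17 (Mrpl35). Without Myc replicate 3 the difference of Mrpl35 was 0.02.

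**Figure D3:**
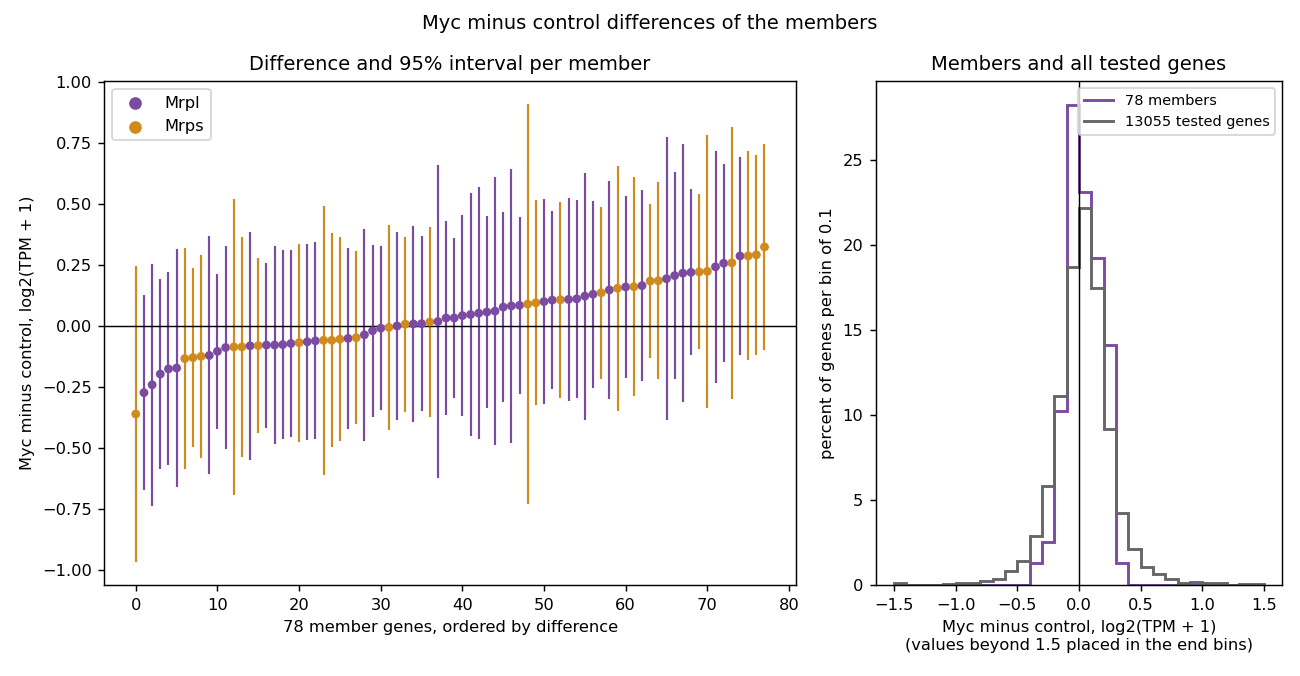
Left, the difference in log2(TPM + 1), Myc minus control, with its 95% interval for each of the 78 genes, ordered by size and coloured by subunit. Right, the same differences as percent of genes per bin of 0.1 for the 78 members and for all 13055 tested genes. Every interval includes 0, and the members' differences, -0.36 to 0.32, sit in the centre of the distribution of all genes.

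The result between the labels rested in part on 1 library. Myc replicate 3 was the lowest of the 8 libraries in 52 of 78 members (66.7%), against 35.7% of all tested genes, and it was below the gene's own mean in all 78. The highest library was Myc replicate 1 in 22 members, against 35.8% of all tested genes, and Myc replicate 4 or control replicate 1 in 20 members each. The gene-centred mean over the members was 0.23, 0.05, -0.37 and 0.16 log2 units in Myc livers and 0.16, -0.12, 0.00 and -0.11 in control livers. Over all tested genes the same mean was 0.25, 0.01, -0.23 and 0.04 in Myc livers and -0.07, -0.03, -0.02 and 0.04 in control livers, so Myc replicate 1 was as high and Myc replicate 3 was also low in genes at large. Without Myc replicate 3, 67 of 78 members had a difference above 0, against 71.5% of all tested genes. The median difference was then 0.16 in the members and 0.11 in all tested genes. At an unadjusted p under 0.05, 4 members were then higher (background 4.36%), and 0 passed the adjusted threshold (background 0%).

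Several marker lists were also low in Myc replicate 3. Its mean over macrophage markers was -0.76 log2 units from the gene means, over stellate and myofibroblast markers -0.68 and over cholangiocyte markers -0.69, whereas hepatocyte markers stood at -0.04 and all tested genes at -0.23. Neutrophil markers, 7 of 8 genes tested, stood at -0.49 in this library. They summed to 26.8 to 160 TPM in Myc livers and 14.5 to 70.1 TPM in control livers, with the lowest value in control replicate 3. All 7 had a difference above 0, against 58% of all tested genes, and 0 passed. Summed macrophage markers, 8 genes, were 432 to 744 TPM in Myc livers and 457 to 1126 TPM in control livers, with the lowest value in Myc replicate 3. Summed cholangiocyte markers, 7 of 8 genes tested, were 120 to 973 TPM in Myc livers and 102 to 324 TPM in control livers. Summed stellate and myofibroblast markers, 8 genes, were 222 to 625 TPM in Myc livers and 172 to 347 TPM in control livers, and their mean was lowest in control replicate 2, at -1.07. Endothelial markers, 8 genes, summed to 61.5 to 126 TPM in Myc livers and 95.8 to 152 TPM in control livers, and were lowest in Myc replicate 4. A difference above 0 was found in 7 of 7 cholangiocyte, 7 of 8 stellate and myofibroblast and 1 of 8 macrophage markers. It was found in 2 of 10 hepatocyte and 0 of 8 endothelial markers, against 58% of all tested genes, and 0 of these markers passed. Lymphoid markers reached a mean of 1 TPM in 0 of 8 genes. The library's size factor by median of ratios was 0.850, against 0.957 to 1.22 in the other 7. The part of cell makeup and of scaling in the members' values was not tested beyond the scaling alternatives given with the slopes.

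The members' levels varied together across livers. Over all 3003 pairs of members the median Pearson correlation of log2 levels was 0.58, and 97.0% of pairs were positive, where the median pair of tested genes had 0.19. Without Myc replicate 3 the median was 0.42 and 83.8% of pairs were positive. All pairs share the same 8 libraries and the same scaling. Mrpl10, Mrpl32 and Mrpl46 were the members closest to the others, with median correlations of 0.76, 0.76 and 0.75. Mrps11, Mrpl11, Mrpl49 and Mrpl34 were the farthest, with 0.18, 0.20, 0.27 and 0.28. Mrps11 had 18.5, 14.8, 15.4 and 15.5 TPM in Myc livers and 15.1, 15.5, 20.1 and 13.6 TPM in control livers, so Myc replicate 3 was not low in this gene.

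Set against Myc level as measured, every member had a positive slope, but none passed the adjusted test. In a limma fit of log2(TPM + 1) on log2(Myc TPM + 1) over the 8 libraries and 13054 genes, 78 of 78 members had a slope above 0, against 73.8% of all tested genes. The median slope was 0.10 log2 units per log2 unit of Myc in the members and 0.05 in all tested genes, and members ranged from 0.02 to 0.29. An unadjusted p under 0.05 with a positive slope was found in 21 members (26.9%), against 8.73% of all tested genes, and one with a negative slope in 0 members, against 0.735%. The adjusted threshold was passed by 0 members and by 4 genes in all, or 0.0306%. The slope was positive in Lpl (0.71) and Mgst3 (0.52) and negative in Mup5 (-0.83) and Serpina4-ps1 (-0.95). Mup5 had 9.33 TPM in Myc replicate 3, 1.45 TPM in control replicate 4 and 0 TPM in every other library. The smallest adjusted p of a member was 0.420.

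The 6 members with the lowest p-values for the slope were Mrps21, Mrps14, Mrpl42, Mrpl58, Mrps15 and Mrps10. Mrps21 (chr3:95862634-95871519), a small subunit protein with a bacterial counterpart, had 50.1, 51.1, 21.3 and 47.9 TPM in Myc livers and 52.4, 36.3, 48.9 and 36.2 TPM in control livers. Mrps14 (chr1:160195215-160202170), which lies in the head of the small subunit, had 14.9, 14.4, 6.66 and 14.7 TPM in Myc livers and 15.9, 10.9, 14.0 and 10.5 TPM in control livers. In both genes Myc replicate 3, the library lowest in Myc, was far below the other 7, and control replicates 4 and 2, the next lowest in Myc, came next. The slope was 0.29 ± 0.06 for Mrps21 and 0.25 ± 0.06 for Mrps14 (log2 per log2 ± SE; adjusted p = 0.420 for each, limma). Between the labels, the difference was -0.09 ± 0.28 for Mrps21 and -0.06 ± 0.25 for Mrps14 (log2 ± SE), and neither passed.

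Mrpl58 (chr11:115403752-115412674), a peptidyl-tRNA hydrolase that frees stalled mitochondrial ribosomes and is also a large subunit protein, had 30.1, 23.3, 13.8 and 28.1 TPM in Myc livers and 21.3, 20.1, 26.0 and 21.6 TPM in control livers. Mrpl42 (chr10:95480805-95501940), a protein specific to mitochondrial ribosomes, had 78.1, 80.5, 41.1 and 75.6 TPM in Myc livers and 84.4, 67.2, 84.1 and 80.9 TPM in control livers. The other 7 libraries of Mrpl42 lay between 67.2 and 84.4 TPM, and Myc replicate 3 was below them. The slope was 0.20 ± 0.06 for Mrpl58 and 0.21 ± 0.06 for Mrpl42 (SE), and 0.18 for both Mrps15 and Mrps10. Without Myc replicate 3 the slope of Mrpl42 was 0.03, and that of Mrps21 was 0.21.

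**Figure D4:**
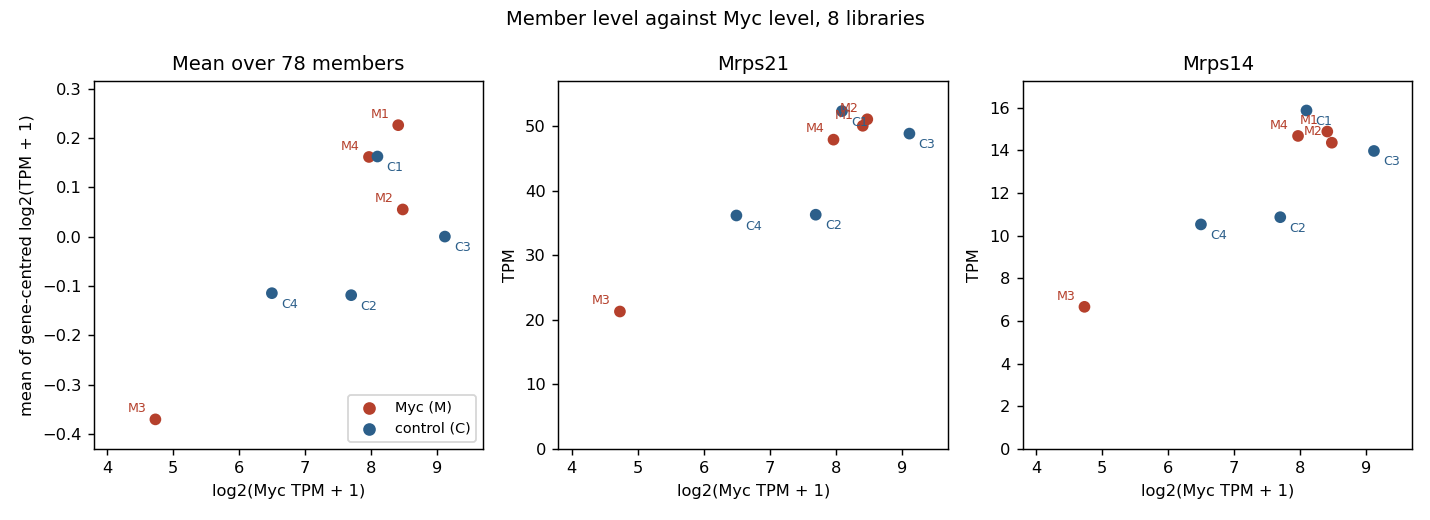
Mean gene-centred log2(TPM + 1) of the 78 members (left), TPM of Mrps21 (middle) and TPM of Mrps14 (right) against log2(Myc TPM + 1) in each library, with Myc libraries in red (M, replicate number) and control libraries in blue (C). Myc replicate 3 lies alone at the lower left of each panel, and the other 7 libraries form a loose group above it.

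The correlation with Myc was weaker without the libraries lowest in Myc. The mean member level had r = 0.81 and rho = 0.60 with log2 Myc over the 8 libraries. For single members the median r was 0.61, against 0.27 for all tested genes. Exact permutation over all 40320 pairings gave an unadjusted p under 0.05 with a positive r in 25 of 78 members, against 7.36% of all tested genes, and an adjusted p under 0.05 in 0 of 78 members and 0 of all tested genes, with 0.602 as the smallest adjusted value of a member. The libraries farthest from the median Myc level were Myc replicate 3 and control replicate 4, the 2 lowest in Myc. Without these 2, the mean member level had r = 0.07 with Myc, and 39 of 78 members had a positive r with a median of -0.02, against 53.6% and a median of 0.04 for all tested genes. Log2 Myc then spanned only 7.70 to 9.12 over 6 libraries, against 4.73 to 9.12 over all 8. This check therefore cannot tell an absent relation from a range too narrow to show it. Without control replicate 3, the library highest in Myc, the median slope was 0.13 in the members and 0.07 in all tested genes. Without Myc replicate 3 alone the mean member level had r = 0.48 over 7 libraries. The slope was then positive in 67 of 78 members, against 54.9% of all tested genes, with a median of 0.07 against 0.01, and 1 member had an unadjusted p under 0.05 with a positive slope (background 0.973%).

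Scaling changed the size of the slopes. With TPM divided by median-of-ratios size factors, 68 of 78 members had a positive slope, against 49.7% of all tested genes, and the median was 0.05 in the members and 0.00 in all tested genes. An unadjusted p under 0.05 with a positive slope was then found in 7 members (background 3.78%). After quantile normalization 61 of 78 were positive, against 48.2%, with a median of 0.04, and 7 members had an unadjusted p under 0.05 (background 3.54%). With array weights, which let limma give each library its own weight, 15 members passed the adjusted threshold for the slope, beside 8.53% of all tested genes, and 43 had an unadjusted p under 0.05 (background 25.6%). For the difference between the labels, array weights gave 5 members an unadjusted p under 0.05 (background 2.96%), and 0 passed. Both scalings lowered the median of all genes as well as that of the members.

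**Figure D5:**
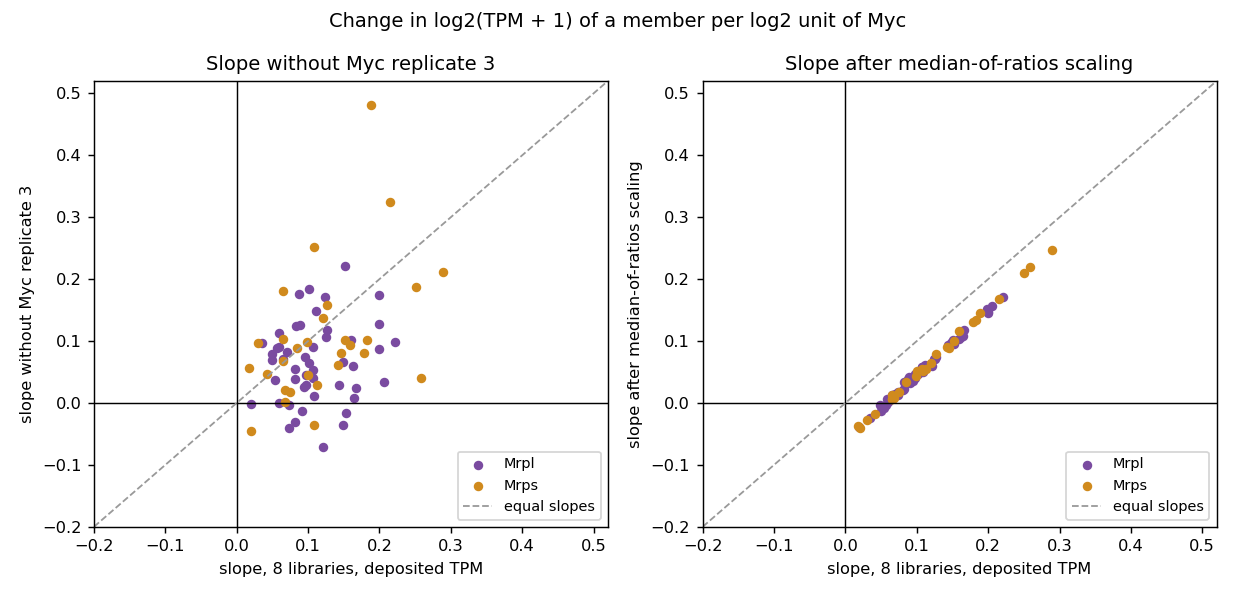
Slope of each member on log2 Myc in deposited TPM of all 8 libraries (horizontal) against its slope without Myc replicate 3 (left) and after median-of-ratios scaling (right), in log2 units per log2 unit of Myc, with a dashed line where both are equal. Without Myc replicate 3 the slopes scatter, with 67 of 78 above 0, whereas scaling lowers the slopes together and leaves 68 of 78 above 0.

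The letters around the start of these genes were read as a description, and their relation to the members' levels was not tested. RefSeq promoter windows of GRCm38.p6, the assembly also called mm10, were matched by symbol for 69 of the 78 members. Each window holds 250 bases before the start and 50 after it. On both strands, the letters CCGGAAG, which ETS-family factors recognise, were found in 26 of 69 members (37.7%), against 20.2% of tested genes with a window. The NRF1 letters GCATGCGC were found in 8 members (11.6%), against 5.84% of tested genes, and the YY1 letters ATGGCG in 19 members (27.5%), against 17.7%. The E-box letters CACGTG, which Myc with its partner Max can bind, were found in 5 members (7.25%), namely Mrpl2, Mrpl20, Mrpl36, Mrpl37 and Mrps18c, against 11.8% of tested genes. A gene was counted when any of its windows held the letters, and some genes have several windows. By window, CACGTG was in 9.33% of 75 member windows and 9.87% of 12151 windows of tested genes. The same shares were 34.7% and 17.2% for CCGGAAG, 10.7% and 4.96% for GCATGCGC, and 25.3% and 14.8% for ATGGCG. The median slope on Myc was 0.10 in the 5 members with CACGTG and 0.11 in the 64 without it. A match is a run of letters in this window and not a measured binding site.

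The 100 bases before the start are printed for 7 members, as examples of the repeated CCGGAAG (Mrpl43, Mrpl53), of a steep slope with CCGGAAG (Mrpl58), of repeated GCATGCGC (Mrpl32), of CACGTG close to the start (Mrpl20, Mrpl36), and of a steep slope with none of the letters in this stretch (Mrps14). They are written 5′ to 3′ on the strand of the gene, with any of the 4 letter runs, on either strand, in capitals. The start meant here is that of RefSeq. The deposited coordinates place the start further upstream for Mrpl32 (14613165), Mrpl53 (83109040) and Mrpl36 (73328513). By those coordinates the printed stretch lies inside Mrpl32 and Mrpl36, and mostly inside Mrpl53. The stretches are chr19:45006443-45006542 on the minus strand (Mrpl43), chr6:83109008-83109107 on the plus strand (Mrpl53), chr11:115403652-115403751 on the plus strand (Mrpl58), chr13:14613038-14613137 on the minus strand (Mrpl32), chr4:155802778-155802877 on the plus strand (Mrpl20), chr13:73330909-73331008 on the plus strand (Mrpl36) and chr1:160195115-160195214 on the plus strand (Mrps14).
Mrpl43: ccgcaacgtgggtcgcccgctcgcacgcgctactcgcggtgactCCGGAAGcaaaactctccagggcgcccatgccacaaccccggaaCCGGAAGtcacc
Mrpl53: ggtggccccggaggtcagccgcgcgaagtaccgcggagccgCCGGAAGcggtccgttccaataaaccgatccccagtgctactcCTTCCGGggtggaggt
Mrpl58: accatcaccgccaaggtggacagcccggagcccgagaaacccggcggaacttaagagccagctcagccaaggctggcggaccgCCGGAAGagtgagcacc
Mrpl32: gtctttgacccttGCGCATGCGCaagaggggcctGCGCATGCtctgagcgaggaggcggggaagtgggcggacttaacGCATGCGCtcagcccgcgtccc
Mrpl20: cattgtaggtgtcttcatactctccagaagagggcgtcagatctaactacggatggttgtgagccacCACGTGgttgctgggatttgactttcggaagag
Mrpl36: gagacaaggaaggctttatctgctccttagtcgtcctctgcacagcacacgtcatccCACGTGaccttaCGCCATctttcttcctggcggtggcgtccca
Mrps14: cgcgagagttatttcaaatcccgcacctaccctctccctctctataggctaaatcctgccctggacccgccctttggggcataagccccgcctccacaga
In Mrpl43 the runs begin 56 and 12 bases before the start, and in Mrpl53 they begin 59 and 16 bases before it, the second on the opposite strand. In Mrpl32 the GCATGCGC run occurs 4 times, with a pair overlapping on opposite strands. The CACGTG run begins 33 bases before the start of Mrpl20 and 43 before that of Mrpl36. The slopes on Myc were 0.10 ± 0.05 for Mrpl20, 0.07 ± 0.06 for Mrpl36 and 0.25 ± 0.06 for Mrps14 (SE). These genes were picked as examples, Mrps14 for its steep slope, so their slopes do not compare members with and without a run.

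Many members share a start region with another gene, by the starts of the deposited coordinates. A tested gene on the opposite strand begins within 1000 bases upstream of, or overlaps by at most 300 bases, the start of 23 members (29.5%), against 11.9% of all tested genes. Mrpl32 and Psma2, a proteasome subunit, had r = 0.83 over the 8 libraries, and Mrpl36 and Ndufs6, a subunit of respiratory complex I, had r = 0.75. Mrps12 and Sars2, the mitochondrial seryl-tRNA synthetase, had r = 0.61. By contrast, Mrpl40 and the histone chaperone gene Hira had r = -0.60, and Mrpl49 and Fau, which encodes a cytosolic ribosomal protein, had r = -0.32. These correlations are descriptions over 8 libraries, which all pairs share.

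No gene of the wider mitochondrial translation machinery passed, and most had a positive slope. Of 5 further ribosome subunits under other names, 27 assembly genes, 16 translation factors, 16 aminoacyl-tRNA synthetases and 18 genes of mitochondrial DNA transcription and biogenesis, 0 passed either test. The slope on Myc was positive in 5 of 5, 23 of 27, 16 of 16, 16 of 16 and 16 of 18 of these genes in that order, where 73.8% of all tested genes had a positive slope. Ptcd3, a small subunit protein, had a slope of 0.18 ± 0.06, and Chchd1, another, of 0.17 ± 0.07. The elongation factor gene Tsfm had 0.19 ± 0.08 and the recycling factor gene Mrrf 0.17 ± 0.07. Fars2, the phenylalanyl-tRNA synthetase, had 0.18 ± 0.06, Sars2 0.22 ± 0.07, the rRNA methyltransferase gene Tfb1m 0.16 ± 0.06, and Ssbp1, which binds single-stranded mitochondrial DNA, 0.19 ± 0.07 (log2 per log2 ± SE throughout). These genes, except Tsfm, were named for a low p of the slope itself. The other genes named for the difference between the labels had slopes of 0.08 (Aurkaip1), 0.07 (Gadd45gip1), 0.08 (Rmnd1), 0.16 (Mrm3) and 0.13 (Mtif2). Yars2 had 0.14, Hars2 0.04, Esrra 0.02 and Mterf2 0.09.

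Nuclear subunits of oxidative phosphorylation and cytosolic ribosomal proteins were set beside the members as the most similar groups. In the 79 oxidative phosphorylation subunits the median slope was 0.15, with 79 of 79 positive (73.8% of all tested genes) and 50 (8.73% of all tested genes) at an unadjusted p under 0.05, and Myc replicate 3 was the lowest library in 73 of 79. In the 79 cytosolic ribosomal protein genes the median slope was 0.12, with 78 of 79 positive and 14 at an unadjusted p under 0.05. Myc replicate 3 was the lowest library in only 19 of these 79, against 35.7% of all tested genes. None of the genes of either group passed. A positive slope on Myc over the 8 libraries was thus found in nearly all genes of all 3 groups, and the difference between the groups was not tested. Without the 2 libraries lowest in Myc, r with Myc was positive in 5 of 79 cytosolic ribosomal and 49 of 79 oxidative phosphorylation genes. It was positive in 39 of 78 members and 53.6% of all tested genes.

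The genes that these ribosomes translate or contain, encoded by mitochondrial DNA, were set beside the members last. All 15 of 15 tested had a difference above 0 between the labels, against 58% of all tested genes. The median was 0.29 log2 units, against 0.03 in the members, and the difference between these groups was not tested. The slope on Myc was positive in 11 of 15, against 73.8% of all tested genes, with a median of 0.04, against 0.05 in all tested genes. The 4 Myc values lay above the 4 control values in 4 of the 15 (background 0.935%). The NADH dehydrogenase subunit gene mt-Nd2 had 7971, 7186, 6017 and 8958 TPM in Myc livers, against 5575, 4977, 5072 and 4838 TPM in control livers. The groups did not overlap in this gene, Myc replicate 3 being the lowest of the Myc livers but above every control. The log2 difference was 0.55 ± 0.18 (SE; unadjusted p = 0.0124, adjusted p = 0.9998, limma), so it did not pass. As a group the 15 genes took 9.45% to 10.6% of TPM in Myc livers and 7.38% to 9.21% in control livers. Their TPM comes from an mRNA library kit, and they are cut from long shared precursors, so they are not independent of each other.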

How the data were processed

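RNA was extracted from liver with TRIzol and made into libraries with a dual-mode mRNA kit, per the labels' protocols. The submitters' processing notes name HISAT2, StringTie and the mm10 build, without versions. TPM, FPKM and coverage, a signal not scaled for depth, were deposited by the authors for each gene, per the file headers. TPM was the unit tested, and no read counts were used. Aligned bases per library were taken from the modal ratio of coverage to FPKM, on the assumption that FPKM was divided by total aligned bases.

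Repeated rows of a gene, 10 to 15 per library, were summed. All 78 members matched GENCODE M21 by ID and version with the same coordinates. Differences (Myc minus control) and slopes on log2(Myc TPM + 1) were fitted with limma 3.58.1 in R 4.3.3 on log2(TPM + 1), with a trended and robust prior, two-sided, over every gene averaging 1 TPM or more, and adjusted by Benjamini-Hochberg over all of them at 0.05. A fold change on this scale understates the change of low genes. The fits were also run on simulated data, with genes drawn independently and with changes larger than those of any member. That run cannot show how the fits treat small changes, or genes that vary together as the members do. P-values measure the spread between these animals. Correlations were tested by exact permutation with scipy 1.17.1, with pandas 2.3.3 and numpy 2.4.6 in Python 3.11.15. Figures were drawn with matplotlib 3.10.9.

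The members, the gene lists and the tests were chosen with earlier results of these data known. The text names the 5 highest and 5 lowest members by mean TPM, up to 6 members per direction by p for each fit, members with separated groups, up to 2 genes per other list by p in each fit, and Myc. Other genes and members were named after their values were seen, as examples of an extreme or of a pair. Alternatives were pseudocounts of 0.1 and 5, no filter, a minimum mean of 5 TPM, median-of-ratios and quantile scaling, FPKM, no trended or robust prior, array weights, the replicate number as a block, the group as a second term for slopes, and leaving out each library.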

Additional observations from a re-analysis of the deposited data

Results flagged for a closer look

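Among 58 groups of 4 values examined (Myc, the sums and ratio, and the named members in each group), 6 held a value far from the other 3, by Dixon's test at its 95% critical value. Chance gives about 1 in 20 for a group picked at random, but many of these members were named for p-values of fits on the same libraries, and all share those libraries, so the number of such values is a description. Of these, 4 were in Myc replicate 3, where Mrpl42 had 41.1 TPM (75.6 to 80.5 TPM in the other 3 Myc livers), Mrps14 had 6.66 TPM (14.4 to 14.9 TPM), Mrps21 had 21.3 TPM (47.9 to 51.1 TPM) and Mrps36 had 8.03 TPM (18.2 to 19.0 TPM). Mrps25 had 9.56 TPM in Myc replicate 1, against 3.81 to 4.07 TPM in the other 3 Myc livers. Mrpl35 had 6.11 TPM in control replicate 2, against 7.65 to 7.91 TPM in the other 3 control livers.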

How the results depend on the processing

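No member passed the adjusted threshold for Myc minus control under any alternative run, and none for the slope on Myc except under array weights. There 15 members passed, beside 8.53% of all tested genes, and 43 members had an unadjusted p under 0.05. On the other mitochondrial lists 13 genes passed there. Those lists run from ribosome subunits under other names (5 tested) and assembly (27) to mitochondrial DNA transcription (18) and genes encoded by mitochondrial DNA (15), and they also hold the member Mrpl58. Myc replicates 2 and 3 had the largest weights in that fit, at 3.08 and 2.33. Array weights also gave 5 members an unadjusted p under 0.05 for the difference (2.96% of all tested genes). The median slope was 0.0503 after median-of-ratios scaling and 0.0441 after quantile normalization, with 7 members at an unadjusted p under 0.05 in each. Leaving out 1 library at a time, the median difference was -0.05 to 0.16, members above 0 numbered 29 to 67, 0 to 4 had an unadjusted p under 0.05 and a positive difference, the median slope was 0.0722 to 0.132, 1 to 29 had an unadjusted p under 0.05 and a positive slope, and the log2 difference in Myc was -0.91 to 0.43. The lower or upper end came without Myc replicate 1 for members above 0 (29), without Myc replicate 3 for members above 0 (67), slopes at an unadjusted p under 0.05 (1) and the Myc difference (0.43), without control replicate 3 for the median slope (0.132) and slopes at an unadjusted p under 0.05 (29), and without control replicate 4 for the Myc difference (-0.91). Only the difference of Mrpl35, 0.017 without Myc replicate 3, changed sign among 330 settings of single named members, where it otherwise was as low as -0.34, and the 6 members named for their slope passed under array weights alone. The median correlation with Myc was -0.0196 without the 2 libraries farthest from the median Myc level, an alternative added after the data were seen. With the replicate number as a block, the Myc difference stayed at -0.45. In that setting 73 members had a positive slope (68.2% of all tested genes), and 14 had one at an unadjusted p under 0.05 (6.72% of all tested genes), against 21 without the block. Deviations of same-numbered libraries correlated at 0.13, -0.06, 0.07 and 0.07, and those of Myc and control libraries with unlike numbers at -0.206 to 0.222. The values overlap, so this check cannot tell whether the numbers pair the animals. The cause of these shifts was not tested. With 4 animals a group, a member's difference had a 95% half-width of 0.41 log2 units at the median, Myc varied 21.7-fold between libraries, and its low end was a single library, so the slope on Myc and the level of that library cannot be told apart.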
